A study of Homo sapiens with 6 samples.

Results

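The genes described here are 10 members of the NF-κB system: the subunits NFKB1, NFKB2, RELA, RELB and REL, the inhibitors NFKBIA and NFKBIE, and the feedback genes TNFAIP3, BIRC3 and TRAF1. They were chosen by symbol from the 36459 gene symbols of the gene count table, and the choice of symbols was made with earlier results of these data known. The libraries came from PC9, a human non-small cell lung cancer (NSCLC) line that depends on EGFR signalling. PC9 denotes the untreated parental cells, with 3 libraries from 3 independent cultures. PSPC9 denotes the drug-tolerant persister cells collected after 6 days of erlotinib at 15 µM, a drug that blocks EGFR kinase activity, with 3 libraries pooled from 9 independently cultured replicates. The comparison asked which genes differed between the persister and the parental state. Every PSPC9 library was exposed to erlotinib and no PC9 library was, so an effect of the drug and an effect of the persister state cannot be told apart.

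NF-κB is a family of dimeric transcription factors that are held inactive in the cytoplasm and are released by signals from receptors of the TNF, interleukin and Toll-like families. In the canonical arm, the IKK complex marks the inhibitor IκBα (NFKBIA) for destruction and frees dimers of RELA or REL with the processed NFKB1 product. In the non-canonical arm, a kinase that is normally degraded through TRAF3, TRAF2 and the cIAP proteins accumulates, the NFKB2 precursor is processed, and its product acts with RELB. Several family members are themselves target genes, so a rise of their RNA is one of the usual readouts of the pathway, although RNA does not report nuclear protein. Here NFKB1, RELA, REL, NFKBIA, NFKBIE and TNFAIP3 were read as canonical members. NFKB2 and RELB, with BIRC3 and TRAF1, were read as non-canonical members, although BIRC3 and TRAF1 are known targets of either arm.

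The promoters of the family are shown first, because most of these genes are classic targets of the factor they encode or restrain. RefSeq windows on GRCh38.p14, from 250 bases before to 50 bases after an annotated start, were held for 8 of the 10 genes, all but RELB and NFKBIE. The κB consensus, searched on both strands, was found in 7 of the 14 windows of these 8 genes and in at least 1 window of 6 of them. Of all 35116 windows 11.3% held it, and of all 27305 gene symbols with a window 13.3% had it in at least 1. No consensus match was found in the windows of RELA or TRAF1. The matches closest to the starts of the 6 genes are printed 5′ to 3′ on the strand of the gene, with 10 flanking bases on each side and the matched 10 bases in capitals, and each is a match of letters and not a measured binding site.
NFKB1: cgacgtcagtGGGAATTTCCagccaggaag
REL: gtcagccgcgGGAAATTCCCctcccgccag
NFKBIA: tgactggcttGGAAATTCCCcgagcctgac
TNFAIP3: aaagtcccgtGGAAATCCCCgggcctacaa
NFKB2: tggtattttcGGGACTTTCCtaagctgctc
BIRC3: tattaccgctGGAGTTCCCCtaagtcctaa

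The NFKB1 match lies at chr4:102501300-102501329 on the plus strand, and its first capital is 49 bases before the start. The REL match lies at chr2:60881518-60881547 on the plus strand, 46 bases before the start. The NFKBIA match lies at chr14:35404811-35404840 on the minus strand, 81 bases before the start. The NFKB1 match reads as the consensus on the forward strand, and those of REL and NFKBIA read as it on the reverse strand. The TNFAIP3 match at chr6:137867194-137867223 and the BIRC3 match at chr11:102317339-102317368, both on the plus strand, read as the consensus on the reverse strand, 55 and 135 bases before the start. TNFAIP3, BIRC3, REL and NFKB2 each had at least 1 further match, which is not printed. The NFKB2 match lies at chr10:102395674-102395703 on the plus strand, 21 bases before an annotated start inside the gene.

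All 10 genes were higher in PSPC9 than in PC9, and the non-canonical members rose more than most of the canonical ones. Levels are given as CPM, the count of a gene scaled to a common library size after TMM normalization. Genes were compared by the quasi-likelihood test of edgeR, and its p-values, adjusted over 14626 genes by the method of Benjamini and Hochberg with a limit of 0.01, are called the edgeR adjusted p throughout. All 10 genes passed the expression filter. For each of the 10, every PSPC9 library lay above every PC9 library. Over all genes tested 56.8% were called, 28.7% higher and 28.1% lower. The groups did not overlap for 71.3% of all genes tested, with PSPC9 above for 35.5% and below for 35.7%, so a call by itself was common in this comparison. The median log2 fold change was 0.78 over the 10 genes and -0.0061 over all genes tested. It was 0.51 over the 6 canonical members, with a range from 0.21 to 0.83, and 1.37 over the 4 non-canonical members, with a range from 0.80 to 2.71. The ranges of the arms met, since NFKB2 at 0.80 lay below TNFAIP3 at 0.83. The contrast also rests on reading BIRC3, at 1.14, and TRAF1, at 2.71, as non-canonical, although both are known targets of either arm. These are descriptions of a chosen set, and the difference between the arms was not tested. In bulk RNA, fewer cells of a kind and less RNA per cell cannot be told apart.

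**Figure D1:**
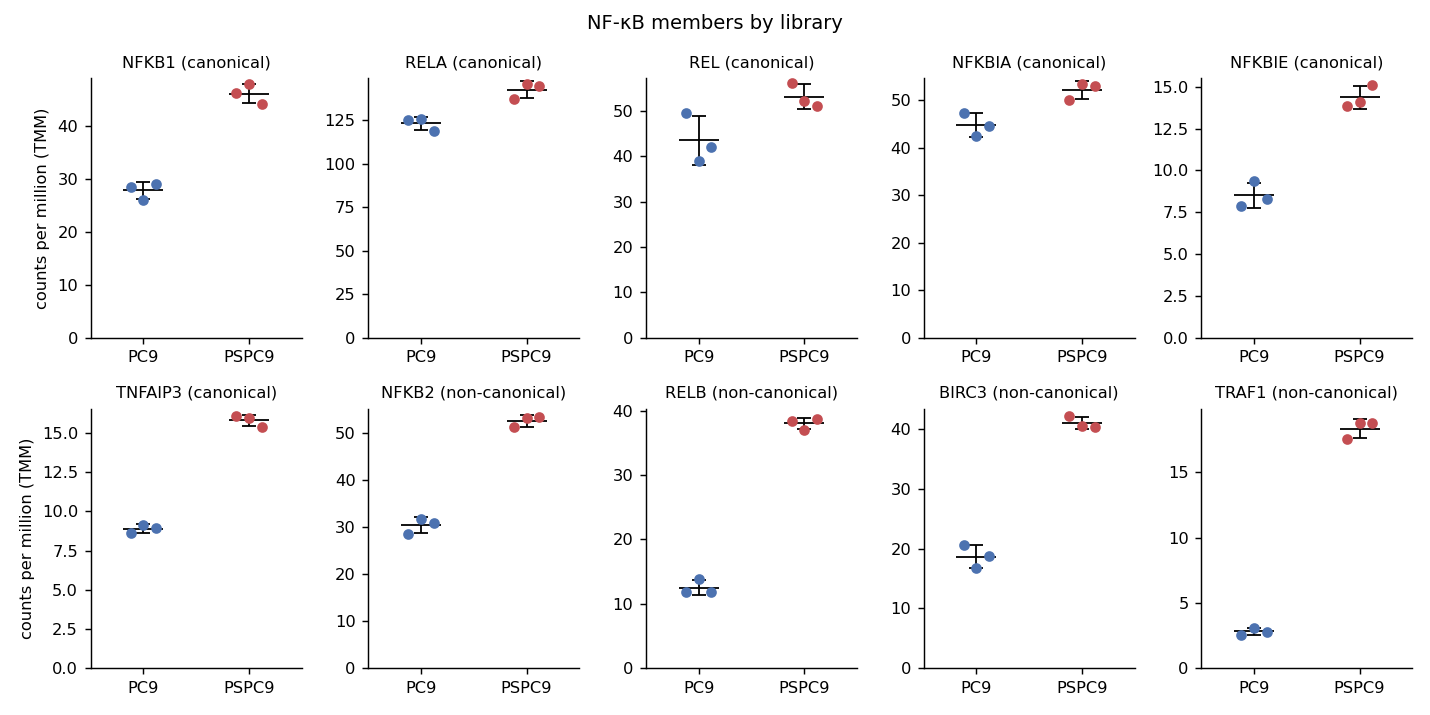
TMM-normalized CPM of each of the 10 genes (y axis, starting at 0) in the 3 PC9 and the 3 PSPC9 libraries (x axis), with 1 point per library, a bar at the mean and an error bar of 1 SD. In all 10 panels the PSPC9 points lie above the PC9 points, from a wide gap in TRAF1 to narrow ones in REL, NFKBIA and RELA.

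Libraries held 29476725 to 34893782 gene counts. PC9 and PSPC9 separated on the first principal component, which held 82.4% of the variance. Same-group libraries differed by more than sampling noise, with a chi-square statistic per degree of freedom of 3.41 to 19.96, so none was a copy of another. This statistic cannot tell separate cultures from separate libraries of the same culture. All 7 epithelial markers were present, with summed levels from 8145 to 8641 CPM in PC9 and from 6835 to 7179 CPM in PSPC9. They moved in both directions. KRT19, KRT18, KRT8 and EPCAM were called lower, with log2 fold changes of -1.03, -0.92, -0.80 and -0.18. CDH1, EGFR and KRT7 were called higher, with 0.60, 0.50 and 0.46. Of 8 blood cell markers, 7 were under 1 CPM in every library and CD3E, CD2 and MS4A1 were at 0. The exception, CD68, was at 74.8 CPM in PC9 and 21.1 CPM in PSPC9. Without CD68 the blood marker sum ran from 1.09 to 1.22 CPM in PC9 and from 0.445 to 0.497 CPM in PSPC9, both near the floor. Of 7 fibroblast and endothelial markers, 3 were under 1 CPM in every library, and their summed level of 18.2 to 19.4 CPM in PC9 and 30.4 to 34.1 CPM in PSPC9 was carried in PSPC9 by COL1A1, at 28.3 CPM. Without COL1A1 this sum was 8.19 to 9.36 CPM in PC9 and 4.08 to 4.80 CPM in PSPC9, and the endothelial marker PECAM1 was at 4.37 CPM in PC9 and 0.214 CPM in PSPC9. The PSPC9 libraries were pools and the PC9 libraries were not. The coefficient of variation was lower in PSPC9 for 9 of the 10 genes, the exception being RELA, but all 10 also had higher levels there. The share over all genes was not computed, and a link to the pooling was not tested.

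RELB, the subunit that defines the non-canonical dimer, rose the most among the 5 subunits. It lies at chr19:45001461-45038192 on the plus strand of GRCh38. RELB was at 11.8, 13.9 and 11.9 CPM in PC9 replicates 1, 2 and 3, and at 38.4, 37.1 and 38.8 CPM in PSPC9 replicates 1, 2 and 3. The lowest persister library was well above the highest parental one. The means were 12.5 ± 1.18 and 38.1 ± 0.887 CPM (SD, n = 3 each), a log2 fold change of 1.61 (SE 0.0661, edgeR adjusted p = 5.67e-09). NFKB2 (chr10:102394110-102402524, plus strand), whose precursor is the inhibitor and the source of the RELB partner, was at 28.4, 31.7 and 30.8 CPM in PC9 and at 51.1, 53.2 and 53.5 CPM in PSPC9. Its log2 fold change was 0.80 (SE 0.0514, edgeR adjusted p = 1.85e-07), and the groups did not overlap.

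Of the canonical subunits NFKB1 rose clearly, and RELA and REL rose by smaller amounts. NFKB1 (chr4:102501330-102617302, plus strand), the source of the most common RELA partner, was at 28.3, 26.03 and 29.05 CPM in PC9 and at 46.1, 47.7 and 44.1 CPM in PSPC9. Its log2 fold change was 0.73 (SE 0.0549, edgeR adjusted p = 6.51e-07), close to that of NFKB2. RELA (chr11:65653599-65663090, minus strand), the main activating subunit of the canonical dimer, was at 125, 126 and 119 CPM in PC9 and at 137, 146 and 145 CPM in PSPC9. These groups did not overlap, but the change was 1.16-fold, a log2 fold change of 0.21 (SE 0.0415, edgeR adjusted p = 0.000924). REL (chr2:60881491-60931612, plus strand), the c-Rel subunit best known from lymphocytes, was at 49.6, 39.1 and 42.1 CPM in PC9 and at 56.3, 52.2 and 51.2 CPM in PSPC9. PC9 replicate 1 stood only just under the lowest PSPC9 library, and the log2 fold change was 0.29 (SE 0.0786, edgeR adjusted p = 0.00747). The REL call was lost under upper-quartile normalization (0.24, edgeR adjusted p = 0.0187) and without any 1 of 5 of the 6 libraries, with the edgeR adjusted p then between 0.0140 and 0.0354; it held without PC9 replicate 1.

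The inhibitors differed from each other. NFKBIA (chr14:35401079-35404749, minus strand), which encodes IκBα, the fast and strongly induced brake of the canonical arm, was at 47.3, 42.4 and 44.6 CPM in PC9 and at 49.9, 53.4 and 53.0 CPM in PSPC9. The groups were apart by a small gap, with a log2 fold change of 0.22 (SE 0.0518, edgeR adjusted p = 0.00314). The NFKBIA call was lost without PC9 replicate 3, PSPC9 replicate 2 or PSPC9 replicate 3, with an edgeR adjusted p up to 0.0181, and under upper-quartile or library-size normalization. NFKBIE (chr6:44258166-44265788, minus strand), which encodes the slower inhibitor IκBε, was at 7.87, 9.34 and 8.32 CPM in PC9 and at 13.9, 14.1 and 15.1 CPM in PSPC9. Its log2 fold change of 0.76 (SE 0.0804, edgeR adjusted p = 9.62e-06) was of the size seen for NFKB1 and NFKB2.

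Among the feedback genes TRAF1 had the widest change of the 10. TRAF1 (chr9:120902393-120929173, minus strand), an adaptor of TNF receptors that binds TRAF2 and the cIAP proteins, was at 2.53, 3.08 and 2.79 CPM in PC9 and at 17.5, 18.8 and 18.8 CPM in PSPC9. Its level was 6.55-fold higher in PSPC9, a log2 fold change of 2.71 (SE 0.0881, edgeR adjusted p = 9.55e-10), and its parental level per length was the lowest of the 10. BIRC3 (chr11:102317484-102339403, plus strand), which encodes the ubiquitin ligase cIAP2, was at 20.6, 16.7 and 18.7 CPM in PC9 and at 42.2, 40.5 and 40.4 CPM in PSPC9. Its log2 fold change was 1.14 (SE 0.0687, edgeR adjusted p = 1.10e-07). With TRAF1 and RELB it was 1 of the 3 genes that changed more than 2-fold, and over all genes tested 5.65% were called higher and 5.91% lower by more than 2-fold. TNFAIP3 (chr6:137867214-137883314, plus strand), which encodes the ubiquitin-editing brake A20, was at 8.60, 9.17 and 8.94 CPM in PC9 and at 16.1, 16.0 and 15.4 CPM in PSPC9. Its log2 fold change was 0.83 (SE 0.0644, edgeR adjusted p = 7.94e-07), the highest of the canonical members.

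**Figure D2:**
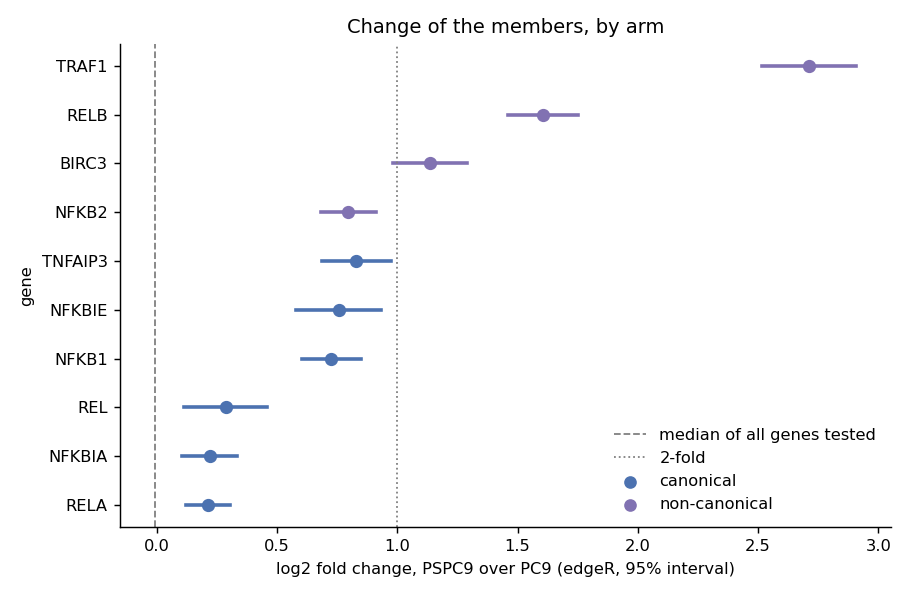
Log2 fold change of PSPC9 over PC9 (x axis) for each gene (y axis), with points coloured by arm and bars for the 95% interval of edgeR. The dashed line is the median of all genes tested and the dotted line is a 2-fold change, which TRAF1, RELB and BIRC3 pass as point estimates and which the interval of BIRC3 crosses.

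Exons of RELA overlap the opposite-strand gene RELA-DT and those of TNFAIP3 overlap the opposite-strand gene WAKMAR2. BIRC3 overlaps an unnamed gene on the opposite strand and REL an unnamed gene on its own strand, and counts of these 4 neighbours were not used here. Whether the counting used strand is not given in the sources used here, so reads of these neighbours cannot be told apart from those of the genes.

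Levels of different genes were compared only per length, as CPM per kilobase of transcript. Counts on annotated transcripts were divided by their own lengths, and gene counts on no annotated transcript, the remainder, by the length of the canonical transcript, a measure chosen after seeing the data. In PC9 the order by mean level was RELA at 59.3, NFKBIA at 29.03, NFKB2 at 12.2, NFKB1 at 7.13, RELB at 6.13, NFKBIE at 5.501, REL at 3.89, BIRC3 at 2.90, TNFAIP3 at 1.96 and TRAF1 at 0.648. RELB, from 5.75 to 6.53, and NFKBIE, from 4.56 to 5.99, were the neighbours whose libraries overlapped. In PSPC9 the order was RELA at 65.5, NFKBIA at 33.7, NFKB2 at 21.3, RELB at 18.3, NFKB1 at 12.3, NFKBIE at 8.39, BIRC3 at 6.07, REL at 4.81, TRAF1 at 4.32 and TNFAIP3 at 3.48, and no neighbours overlapped. RELB moved from below NFKB1 to above it, BIRC3 from below REL to above it, and TRAF1 from below TNFAIP3 to above it. These 3 changes of order also stood with gene counts over 1 annotated length per gene. With annotated transcripts only, RELB was below NFKB1 in both groups, at 2.97 against 5.11 in PC9 and 5.37 against 9.51 in PSPC9. RELA was the most abundant of the 10 in both groups.

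**Figure D3:**
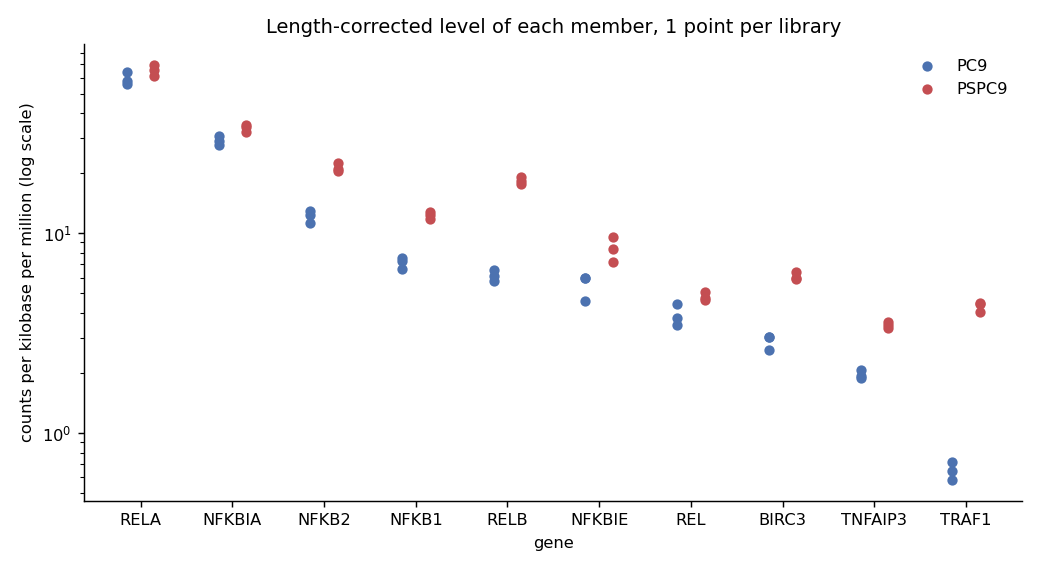
CPM per kilobase of transcript on a log axis (y axis) for the 10 genes (x axis), ordered by their mean in PC9, with 1 point per library and colours for PC9 and PSPC9. RELB rises from 6.13 to 18.3 and passes NFKB1, while RELA stays highest at 59.3 and 65.5.

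The RNA of the subunits of the 2 arms was compared as the log2 ratio of RELB to RELA and of NFKB2 to NFKB1 in each library. Such a ratio does not measure the activity of either arm. With transcripts matched to the annotation and divided by length, the RELB to RELA ratio was -4.42 ± 0.71 in PC9 and -3.65 ± 0.47 in PSPC9 (SD, n = 3 each), a difference of 0.77 with overlapping libraries (two-sided exact permutation p = 0.2). Unlike the levels per kilobase above, this measure leaves out the remainder, which held most RELB counts in 5 of the 6 libraries and from 22.4% to 30.4% of the NFKB1 counts. From gene counts over 1 annotated length the ratio was -3.25, -3.03 and -3.17 in PC9 and -1.68, -1.82 and -1.75 in PSPC9. RELB gained 1.40 on RELA by this measure, without overlap and with an exact permutation p = 0.1, the smallest that 3 against 3 libraries can give. The NFKB2 to NFKB1 ratio was 1.25 ± 0.12 in PC9 and 1.16 ± 0.055 in PSPC9, a difference of -0.085 (exact permutation p = 0.4). Its sign turned with gene counts, at 0.070 (exact permutation p = 0.5), so no shift between the precursor genes was detectable.

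In 5 of the 6 libraries most RELB counts lay on no transcript of the annotation used here, the exception being PC9 replicate 3. Of the identifiers in the transcript table, 6 were matched to RELB in GENCODE 44. The part of the RELB gene count that lay on none of them was 258, 370 and 101 in PC9 and 869, 971 and 931 in PSPC9. That was from 25.3% to 78.4% of the RELB gene count in PC9 and from 70.3% to 83.2% in PSPC9. Of the 21686 unmatched transcript identifiers exactly 1 carried this count within 2 in every library, but its gene could not be read from the annotation, so it is given here only as the remainder. In a fit with the remainder added to the transcripts, its log2 fold change was 2.01 (SE 0.433, edgeR adjusted p = 0.0271), short of the limit.

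The annotated RELB transcripts were low and unsteady. RELB-202, a protein-coding transcript of 11 exons, had counts of 130, 75 and 123 in PC9 and 230, 169 and 358 in PSPC9. Its groups did not overlap, and its log2 fold change of 1.28 (SE 0.326, edgeR adjusted p = 0.0489 over 54499 transcripts) did not pass the limit. RELB-201, the canonical protein-coding transcript of 12 exons, had 0, 20 and 169 counts in PC9 and 0, 4 and 0 in PSPC9 and did not pass the filter. Its 169 counts stood in the same library, PC9 replicate 3, in which the remainder was lowest at 101, while the RELB gene level of that library was like the other parental ones. The retained-intron transcript RELB-203 had 13, 7 and 6 counts in PC9 and 17, 20 and 25 in PSPC9, a log2 fold change of 1.32 (SE 0.455, edgeR adjusted p = 0.114). RELB-204 had at most 8 counts in a library, RELB-205 at most 4, and RELB-206 had 0 in all. When gene counts were rebuilt by summing annotated transcripts only, which drops the remainder by construction, the RELB log2 fold change was 0.71 (edgeR adjusted p = 0.108).

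**Figure D4:**
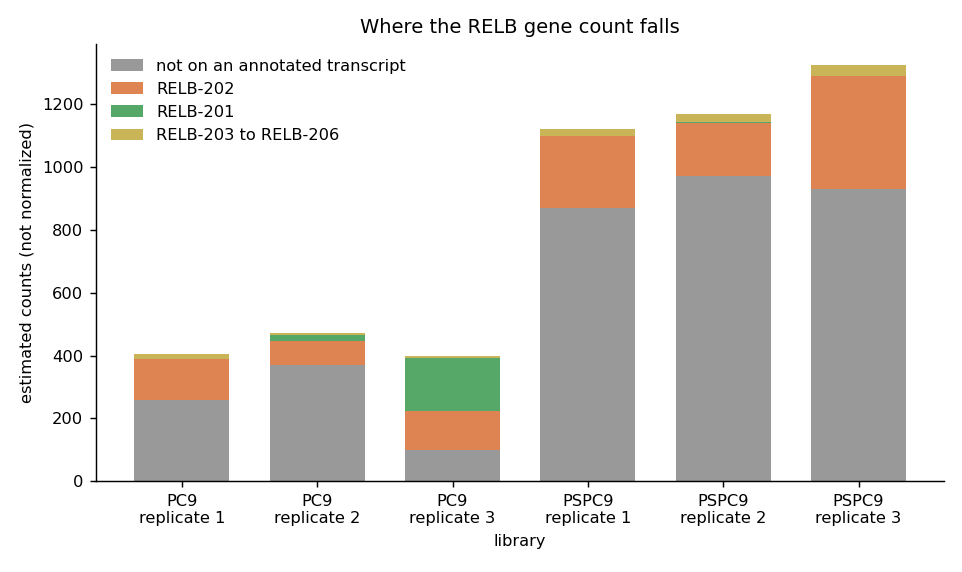
Estimated counts of the RELB gene without normalization (y axis) in each of the 6 libraries (x axis), stacked by annotated transcript and by the part on no annotated transcript (grey). The grey part is 101 to 370 counts in PC9 and 869 to 971 in PSPC9, and RELB-201 is visible mainly in PC9 replicate 3.

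Transcripts of the other genes were tested in the same fit. Of 87 transcripts of the 10 genes in the table, 36 passed the filter, 1 was called higher and 0 lower, where 7.8% of all transcripts were called, 3.89% higher and 3.91% lower. By DESeq2 9 of 49 were called, where it called 11.8% of all transcripts. In 32 of the 36 the log2 fold change was positive, while the median over all transcripts tested was -0.0010. In 17 of the 36 PSPC9 lay wholly above PC9 and in 0 below it, beside 19.1% and 19.8% of all transcripts tested. Transcripts of a gene are not independent, and NFKBIE-201 and NFKBIE-204, with identical counts, both enter the 32 and the 17. The call was BIRC3-201, the canonical BIRC3 transcript, with 688, 543 and 609 counts in PC9 and 1224, 1260 and 1376 in PSPC9 and a log2 fold change of 1.15 (SE 0.0877, edgeR adjusted p = 0.000693).

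Other members showed the same split of a steady gene over unsteady transcripts. TRAF1-201 had 61, 31 and 33 counts in PC9 and 430, 44 and 318 in PSPC9, and TRAF1-202 had 26, 74 and 61 in PC9 and 82, 431 and 234 in PSPC9. PSPC9 replicate 2 was low in the former and high in the latter, and their edgeR adjusted p values were 0.0811 and 0.0770. The gene counts of TRAF1 were 87, 105 and 94 in PC9 and 512, 591 and 641 in PSPC9 and showed no such swing. TNFAIP3-206 had 157, 0 and 180 counts in PC9 while TNFAIP3-201 had 84, 272 and 50. RELA-202 carried most RELA counts, at 3116, 3585 and 3157 in PC9 and 3185, 3378 and 3839 in PSPC9, with overlapping groups. The minor transcript RELA-201 had 68, 149 and 174 counts in PC9 and 303, 332 and 410 in PSPC9, a log2 fold change of 1.49 that missed the limit (SE 0.356, edgeR adjusted p = 0.0396). NFKBIE-201 and NFKBIE-204 had identical counts in every library.

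Transcript usage, whether the transcripts of a gene changed unequally, was testable for 9 of the 10 genes, since BIRC3 had 1 transcript past the filter. It was called for 0 of the 9 by edgeR's test of usage, against 1.88% of all genes tested. None of these genes had an unadjusted p under 0.05 in that test. With the remainders added as transcripts, BIRC3 was called (edgeR adjusted p = 0.00593), where 1.94% of genes were. Its remainder was 14, 19 and 13 counts in PC9 and 1, 1 and 0 in PSPC9, while BIRC3-201 rose.

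The genes around these 10 moved in both directions. In 4 lists of NF-κB signalling and target genes, 65 genes other than the 10 were tested, of which 25 rose, 19 fell and 21 were not called, beside 28.7% and 28.1% of all genes called higher and lower. Their median log2 fold change was 0.12. Among 22 genes of the IKK complex and upstream signalling, 7 rose and 7 fell, with a median of -0.11. The kinase IRAK1 rose by a log2 fold change of 0.60, the IKK catalytic subunit gene CHUK by 0.56, the adaptor TRAF2 by 0.53 and the Toll-like receptor adaptor MYD88 by 0.37. The kinase MAP3K8 was lower with a log2 fold change of -0.93, the TNF receptor adaptor TRADD with -0.59, the adaptor BCL10 with -0.37 and the kinase IRAK4 with -0.31.

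In the list of non-canonical signalling 4 of 11 genes rose and 3 fell, with a median of 0.10. TRAF3, the adaptor that keeps the kinase of this arm low, rose from 77.3 ± 4.36 to 146 ± 4.14 CPM (SD, n = 3 each), a log2 fold change of 0.92 (SE 0.0472, edgeR adjusted p = 3.31e-08). The TWEAK receptor gene TNFRSF12A rose by 0.54, and CHUK and TRAF2 stand in this list too. The receptor genes CD40, TNFRSF11A and LTBR were lower, with log2 fold changes of -0.66, -0.44 and -0.20. The TNFRSF11A call was lost in 7 of 14 alternative fits, among them DESeq2 (adjusted p = 0.0333) and those without PC9 replicate 2 or 3 or PSPC9 replicate 2 or 3 (edgeR adjusted p up to 0.0397). The LTBR call was lost without PC9 replicate 3, PSPC9 replicate 1 or PSPC9 replicate 3 (edgeR adjusted p up to 0.0157). The kinase itself, MAP3K14, was at 93.4 ± 5.37 CPM in PC9 and 101 ± 2.04 CPM in PSPC9 (edgeR adjusted p = 0.0609), and BIRC2, the cIAP1 gene, was at 62.3 ± 5.60 and 61.0 ± 2.76 CPM (edgeR adjusted p = 0.698). MAP3K14 and BIRC2 were singled out after their values were seen.

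Of 14 genes tested in the list of other inhibitors and brakes, 9 rose and 4 fell, with a median of 0.24. The deubiquitinase CYLD rose from 27.6 ± 2.85 to 63.4 ± 2.93 CPM, a log2 fold change of 1.20 (SE 0.0692, edgeR adjusted p = 7.82e-08). The deubiquitinase OTULIN and the A20-binding TNIP2 each rose by 0.40, and the A20 partner RNF11 by 0.28. The genes of the ubiquitin ligase ITCH, another A20 partner, and of the nuclear IκB proteins NFKBIZ and BCL3 were lower. Their log2 fold changes were -0.63, -0.64 and -0.61, and the RNase gene ZC3H12A was lower with -0.46. The name of the list does not show that NFKBIZ or BCL3 acted as a brake here, and this was not tested.

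Of 32 other textbook target genes 21 passed the filter, of which 7 rose and 6 fell, with a median of 0.18. The cytokine gene IL6 rose from 0.674 ± 0.205 to 4.02 ± 0.246 CPM, a log2 fold change of 2.57 (SE 0.195, edgeR adjusted p = 6.63e-07). The cyclooxygenase gene PTGS2 rose from 3.22 ± 0.445 to 11.7 ± 0.482 CPM, a log2 fold change of 1.86, and the adhesion gene ICAM1 and the stress gene GADD45B rose by 0.46 and 0.35. TNFAIP2, at 318 ± 27.5 CPM in PC9 and 145 ± 1.47 CPM in PSPC9, fell by 1.13 on the log2 scale. The urokinase gene PLAU, NFKBIZ and the survival gene BCL2L1 were also lower, with log2 fold changes of -0.85, -0.64 and -0.45.

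**Figure D5:**
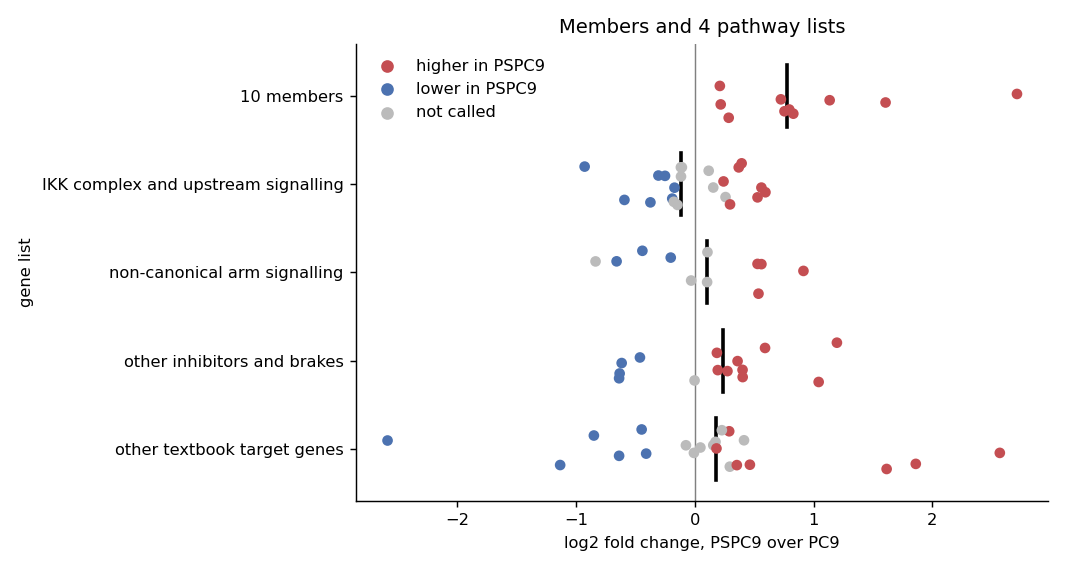
Log2 fold change of PSPC9 over PC9 (x axis) for the 10 genes and for each tested gene of the 4 lists (y axis), coloured by call, with a black bar at each median. The 10 genes all lie to the right of 0 with a median of 0.78, and the list medians lie between -0.11 and 0.24.

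The genes most like RELB and TRAF1 over the 6 libraries were named by the Pearson correlation of log2 CPM among 12274 genes with a mean log2 CPM above 1. For RELB they were GPR161 (r = 0.9998), HEATR6 (r = 0.9998) and PRR5L (r = 0.9997), and for TRAF1 they were SLC7A5 (r = 0.9999), MAST2 (r = 0.9999) and HLA-B (r = 0.9998). The points form 2 clusters, the groups, so such values mostly reflect the step between PC9 and PSPC9, and 775 genes had r above 0.99 with RELB and 920 with TRAF1.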

How the data were processed

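Poly-A RNA from 3 PC9 and 3 PSPC9 libraries was sequenced. The authors used bases2fastq for adaptors, FASTP for read quality and kallisto 0.46.1 for pseudoalignment to GRCh38 transcripts, and the deposited tables hold estimated counts for gene symbols and for transcripts, rounded and not normalized. Groups came from the sample labels, and dose, days and culture numbers from the study's methods.

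The gene fit used edgeR 4.0.16 in R 4.3.3: filterByExpr, TMM, then glmQLFit and glmQLFTest with no block, and Benjamini-Hochberg adjusted p-values under 0.01 were called. The SE is the log2 fold change over the square root of F. The transcript fit had the same form, and usage was tested with diffSpliceDGE. Transcripts and coordinates were matched to GENCODE 44 by identifier (167067 of 188753, with 4.18% to 4.25% of transcript counts unmatched). Each gene's remainder is its gene count minus its matched transcripts. Depth was 29476725 to 34893782 gene counts, and the spread between libraries sets the precision. The gene, transcript and usage fits were also run on simulated counts with independent noise. The simulated counts held no error of assigning reads between transcripts, so that error was not covered.

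The 10 genes and all lists were chosen with earlier results of these data known. Named list genes are up to 4 risen and 4 fallen per list with the smallest p. NFKBID and N4BP1 of the lists were not analysed here. Sleuth, the study's own test, was not run here. Alternatives were DESeq2 1.42.0, limma 3.58.1 (voom), other normalizations, filters and limits, summed transcripts, a replicate block and each library left out. Remainder rows, the levels per kilobase and the ratio of gene counts without length were added after seeing the data.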

Additional observations from a re-analysis of the deposited data

How the results depend on the processing

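The number of the 10 genes called stayed between 8 and 10, all higher, under every alternative with the same fold limit, and between 8 and 10 with each library left out; it was 3, all higher, with a 2-fold limit. REL was lost in 8 of 14 alternative fits, NFKBIA in 5 and RELB in 1 (summed transcripts, 0.71), and the other 7 genes were called in all 14. The pathway lists held 44 calls and from 38 to 47 with a library left out (23 to 27 higher, 14 to 20 lower), and 7 with a 2-fold limit (5 higher, 2 lower). Calls among transcripts stayed at 1 with any library left out and were 9 of 49 by DESeq2, and usage stayed at 0 and was 1 with remainder rows added. The NFKB2 to NFKB1 difference turned from -0.085 to 0.070 with gene counts over 1 length, 0.027 with remainder rows and 0.070 without length, with the cause not tested. IRAK4 was lost in 1 alternative, LTBR in 3 and TNFRSF11A in 7. The median of all genes moved by at most 0.053 (log2) with another scaling.

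With the replicate block all 10 genes were called and the pathway lists held 45 calls. Deviations of same-numbered libraries correlated at 0.124, 0.0236 and 0.0215, so the numbers were not taken to pair the libraries.

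Transcript splits rest on few counts, and the error of assigning reads between similar transcripts enters no test.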

Other observations

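Of the 32 textbook target genes 11 did not pass the filter: VCAM1, which was at 0 in all libraries, the chemokine genes CXCL3, CXCL5, CXCL6, CXCL10, CCL2, CCL5 and CCL20, and CSF2, BCL2A1 and MMP9. The cytokine gene LIF was at 17.0 ± 1.13 CPM in PC9 and 19.2 ± 0.707 CPM in PSPC9 (edgeR adjusted p = 0.0322). TNF was at 0.232, 0.470 and 0.238 CPM in PC9 and at 0.822, 1.02 and 1.05 CPM in PSPC9, a log2 fold change of 1.61 (SE 0.311, edgeR adjusted p = 0.000830). IL1B was at 2.32, 1.88 and 1.93 CPM in PC9 and at 0.411, 0.381 and 0.234 CPM in PSPC9, a log2 fold change of -2.58 (SE 0.245, edgeR adjusted p = 3.93e-06). LIF, TNF and IL1B were singled out after their values were seen.

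NFKB1 also had counts on no annotated transcript, at 296, 265 and 275 in PC9 and 312, 337 and 415 in PSPC9, a log2 fold change of 0.42 (SE 0.104, edgeR adjusted p = 0.0423). The annotated canonical transcript NFKB1-201 had nearly the same counts, at 296, 265 and 274 in PC9 and 313, 339 and 414 in PSPC9. Whether the same reads were split evenly between these entries was not tested, so the remainder is not read as a separate NFKB1 transcript. NFKB1-202 had 372, 334 and 317 counts in PC9 and 523, 451 and 565 in PSPC9, and NFKB1-212, a transcript subject to nonsense-mediated decay, had 0, 0 and 108 in PC9 and 180, 261 and 0 in PSPC9.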
